A study of Mus musculus with 4 samples.

Results

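Cck, Angptl7, Ltbp2, Gdf10, Thbs2 and Kcnk2 are 5 genes for secreted proteins and 1 gene for a potassium channel that read higher in hair follicle stem cells of the Tbx1 conditional knockout. They were taken by gene symbol from 20380 probe sets with a single symbol, which name 12393 genes, and were matched by 7 probe sets, 2 of them for Thbs2. The genes were chosen by their log2 intensity, which was higher on the Tbx1 knockout arrays than on the wild type arrays within each set, so that difference is described here and not tested. The Tbx1 conditional knockout group (cKO) and the wild type group (WT) each had 2 Affymetrix arrays, 1 in set 1 and 1 in set 2. All arrays held RNA of cells sorted by YFP, integrin α6 and CD34 from back skin. The mice were CD1/C57BL/6 females at about postnatal day 60. The treatment text has the hair waxed off 48 h before harvest for every sample, while another label has set 1 quiescent and set 2 activated in both genotypes, so the sets are named by number. The sources used here do not give the promoter that drove deletion of Tbx1. They do not say whether the 2 arrays of a genotype stem from different animals either, and the p-values below then cover the spread between these arrays alone, part of which may be technical.

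The bulge of the resting hair follicle holds stem cells that secrete signals and matrix proteins into their own niche. TBX1 is a T-box transcription factor, a protein that binds DNA and regulates genes. Cholecystokinin, the product of Cck, is a peptide hormone of the gut and a neuropeptide of the brain. GDF10 is a ligand of the transforming growth factor β (TGF-β) superfamily related to BMP3. ANGPTL7 is an angiopoietin-like protein that mouse bulge stem cells are known to make at rest, while ANGPTL4 marks their activation. Thrombospondin 2, from Thbs2, is a matricellular glycoprotein that restrains blood vessel growth. LTBP2 lies along fibrillin microfibrils of the matrix. KCNK2, also known as TREK-1, is a background potassium channel opened by membrane stretch and lipids.

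The promoter windows of 4 of the 6 genes are shown because the genes read higher together and these windows hold motifs that were searched for. RefSeq windows of GRCm38.p6 run from 250 bases before to 50 bases after a start site, and all 6 genes matched, with 4 windows for Kcnk2 and 1 for each of the others. Capitals mark the motifs found on either strand: GGCGCC, a SMAD motif of bone morphogenetic protein (BMP) signalling, TATAAA and CCAAT. Each is written 5′ to 3′ on the strand of its gene. The Cck window (chr9:121495645-121495944, minus strand), the Gdf10 window (chr14:33923337-33923636, plus strand), 1 Kcnk2 window (chr1:189343658-189343957, minus strand) and the Thbs2 window (chr17:14694213-14694512, minus strand) are given.
Cck: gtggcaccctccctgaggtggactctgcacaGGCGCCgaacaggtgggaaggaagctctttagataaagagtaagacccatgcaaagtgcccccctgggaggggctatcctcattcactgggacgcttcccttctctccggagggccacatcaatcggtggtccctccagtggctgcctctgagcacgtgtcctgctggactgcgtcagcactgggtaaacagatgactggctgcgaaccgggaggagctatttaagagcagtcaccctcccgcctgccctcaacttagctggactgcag
Gdf10: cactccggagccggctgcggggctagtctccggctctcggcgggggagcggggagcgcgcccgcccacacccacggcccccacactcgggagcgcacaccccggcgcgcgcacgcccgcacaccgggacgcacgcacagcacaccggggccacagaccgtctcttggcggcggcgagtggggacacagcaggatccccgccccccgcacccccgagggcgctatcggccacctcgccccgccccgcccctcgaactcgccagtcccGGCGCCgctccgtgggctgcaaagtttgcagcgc
Kcnk2: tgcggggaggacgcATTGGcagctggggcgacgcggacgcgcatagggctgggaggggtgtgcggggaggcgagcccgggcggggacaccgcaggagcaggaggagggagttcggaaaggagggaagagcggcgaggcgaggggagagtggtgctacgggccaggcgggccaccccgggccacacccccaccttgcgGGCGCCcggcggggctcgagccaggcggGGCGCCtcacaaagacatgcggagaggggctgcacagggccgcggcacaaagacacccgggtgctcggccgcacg
Thbs2: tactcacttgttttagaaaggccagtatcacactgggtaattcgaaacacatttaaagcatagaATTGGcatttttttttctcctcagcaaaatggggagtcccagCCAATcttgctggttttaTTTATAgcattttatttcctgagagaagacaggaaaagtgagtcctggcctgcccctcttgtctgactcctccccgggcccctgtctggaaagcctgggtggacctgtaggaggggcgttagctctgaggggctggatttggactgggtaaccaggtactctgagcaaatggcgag
GGCGCC was found in 3 of the 9 windows and in 11.9% of all 32851 windows. The T-box half-site GGTGTGA was in none of the 9 windows and in 3.98% of all, and the looser GGTGTNA, which includes it, was also in none and in 10.2% of all. TATAAA was in the Thbs2 window and in 13.6% of all, and CCAAT was in the Thbs2 window, the Kcnk2 window shown and 37.4% of all. GGAATG, a TEAD motif, was in another Kcnk2 window and in 14.7% of all. The windows differed in base composition: GC content was 48.3% for Thbs2, 51.3% for Angptl7, 59.3% for Cck, 61.0% for Ltbp2 and 77.3% for Gdf10. The Kcnk2 window shown had 74.7% and its other windows 68.7%, 54.7% and 43.0%, against a median of 52.7% over all windows.

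Tbx1 itself read 9.54 and 8.88 on the cKO arrays and 10.53 and 10.37 on the WT arrays in log2 intensity, the scale of all levels below. Tbx1 signal thus remained in cKO at 0.424-fold of WT, and the sources used here do not say whether its probe set lies in the deleted part of the gene. In sorted bulk samples, fewer cells of a type and less RNA per cell cannot be told apart. A dim limit was set at the 40th percentile of all probe sets, a log2 intensity of 5.398. The bulge could be recognised in its markers: 13 of 14 lay above the limit, among them Krt15. Of the genes of the sort, Cd34 read 9.46 and 9.12 in cKO against 8.85 and 8.96 in WT, and Itga6 11.85 on both cKO arrays against 11.35 and 11.87 in WT. The array of cKO in set 1 and that of WT in set 2 stood apart in quality measures. For Dap, a control transcript, the 3′ probe set exceeded the 5′ probe set by 2.95 in cKO set 1 and by 1.74 to 1.82 elsewhere. Malat1, a nuclear RNA, had a level of 12.35 in WT set 2, where the remaining arrays had 9.80 to 10.56.

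The hormone gene Cck read 7.25 and 7.17 on the cKO arrays of set 1 and set 2, against 5.05 and 4.77 on the WT arrays. The arrays of a genotype lay close together and the genotypes were far apart. Both cKO values lay above the dim limit, at percentiles 59.6 and 58.7 of all probe sets, and both WT values below it, at 36.4 and 33.3. The mean was 7.21 ± 0.05 in cKO and 4.91 ± 0.20 in WT (SD, n = 2 each), a difference of 2.30 that was 2.19 within set 1 and 2.40 within set 2. With each WT value set at the limit, which was done after the data were seen, the difference of Cck was at least 1.85 within set 1 and 1.78 within set 2, so the order of the sets cannot be read.

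The ligand gene Gdf10 read 7.21 and 6.23 on the cKO arrays, against 4.78 and 4.67 on the WT arrays. Both WT arrays lay below the limit. The difference of 1.99 was 2.43 within set 1 and 1.56 within set 2, where the cKO array reached percentile 48.5 of all probe sets. Array intensities below the limit do not separate low levels, so folds for such genes are given as bounds: with WT set at the limit, cKO was at least 2.50-fold higher for Gdf10 and at least 3.51-fold higher for Cck. Within set 2 alone these bounds were 1.78-fold for Gdf10 and 3.42-fold for Cck.

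Angptl7 and Ltbp2 had the widest spread between the cKO arrays among the 6 genes. Angptl7 read 8.10 and 6.92 on the cKO arrays, against 4.58 and 4.88 on the WT arrays, both of which lay below the limit. Its difference was 2.78, with 3.52 within set 1 and 2.04 within set 2, and with WT set at the limit it was at least 4.32-fold higher in cKO, or 2.87-fold within set 2 alone. Ltbp2 read 8.68 and 7.25 on the cKO arrays, against 5.67 and 5.09 on the WT arrays. The WT set 2 array alone lay below the limit for Ltbp2, and its difference was 2.58, with 3.01 within set 1 and 2.16 within set 2, or at least 1.85 there with WT at the limit. The gap between the lowest cKO and the highest WT value was 2.04 for Angptl7 as read, or at least 1.52 with WT at the limit. For Ltbp2, whose highest WT value lay above the limit, it was 1.58. The order of these 2 gaps cannot be read.

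Thbs2 and Kcnk2 were above the limit in WT cells too. The higher of the Thbs2 probe sets read 7.87 and 7.43 on the cKO arrays, against 6.40 and 5.66 on the WT arrays, a difference of 1.62 that was 1.47 within set 1 and 1.77 within set 2. The lower one read 7.04 and 6.68 in cKO, against 6.19 and 4.82 in WT, so it ran the same way with a smaller gap of 0.49 between the genotypes, and only its WT set 2 value lay below the limit. Its difference was 0.85 within set 1 and 1.86 within set 2. The channel gene Kcnk2 read 7.93 and 7.54 on the cKO arrays, against 5.92 and 6.03 on the WT arrays, a difference of 1.76 that was 4.01-fold within set 1 and 2.85-fold within set 2.

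**Figure D1:**
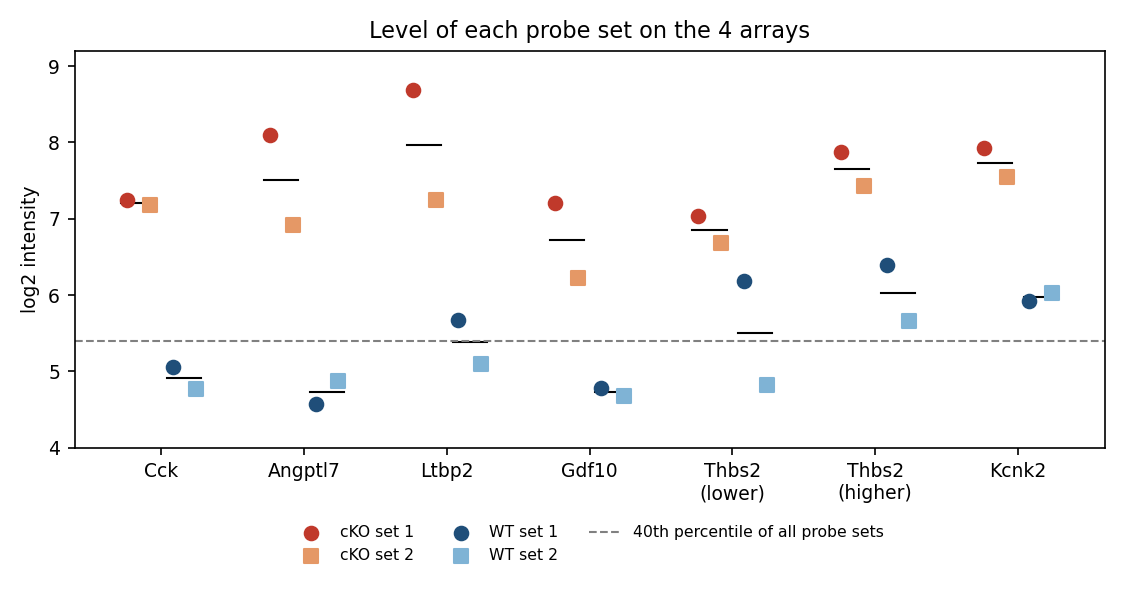
Log2 intensity (vertical axis) of the 7 probe sets of the 6 genes on each array; circles are set 1, squares are set 2, black bars are group means (n = 2) and the dashed line is the dim limit of 5.398. On every probe set both cKO points lie above both WT points, and both WT points of Cck, Angptl7 and Gdf10 lie below the limit.

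All 7 probe sets had both cKO arrays above both WT arrays, and the cKO set 1 array was the highest of the 4 for each. Among the 8031 genes tested, 26.7% had both cKO arrays above both WT arrays and 29.7% were highest on the cKO set 1 array. All 6 genes were at least 1.5-fold higher within both sets, as were 3.04% of all tested genes. Nothing is read from these counts, since the genes were chosen for this difference. Ordered by the smaller of the within-set differences as read, the 6 genes lay within the first 12 ranks, with Thbs2 at rank 12. The other 6 of these ranks were Oasl2, Rtp4, Tsc22d3, Oas1a, Adh7 and Usp18, which are not among the genes described here. Usp18 and Thbs2 lay just inside rank 12 with 1.49 and 1.47, and Sprr2d and Esyt3 just outside with 1.45 for both. With values below the limit set at the limit, the smaller difference was at least 1.78 for Cck, 1.85 for Ltbp2, 1.52 for Angptl7 and 0.83 for Gdf10, so the order among these genes cannot be read.

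**Figure D2:**
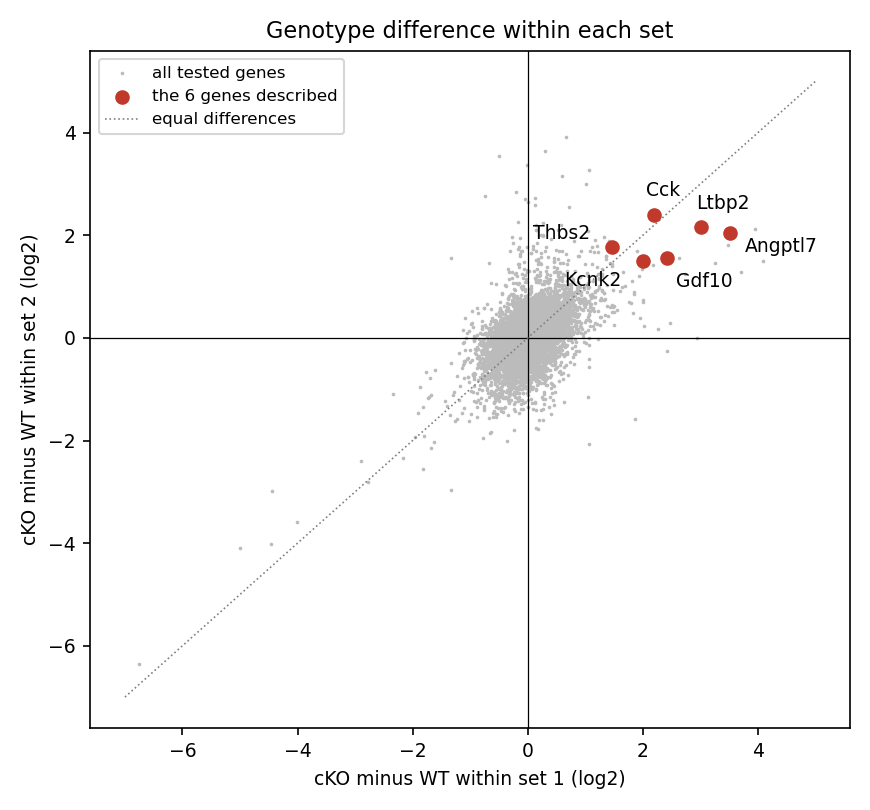
The difference cKO minus WT (log2) within set 1 (horizontal axis) and within set 2 (vertical axis) for 8031 tested genes, in grey, and the 6 genes, in red; the dotted line marks equal differences. All 6 genes lie at 1.47 or higher on both axes. WT values below the dim limit enter as read, for Cck, Angptl7 and Gdf10 on both axes and for Ltbp2 on the vertical axis, so the side of the line on which Cck lies cannot be read.

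Because the cKO set 1 array had the widest gap between the 3′ and 5′ probe sets of Dap, the differences were also taken without it. They were then 2.26 for Cck, 2.19 for Angptl7, 1.87 for Ltbp2, 1.503 for Gdf10, 1.40 for Thbs2 and 1.56 for Kcnk2. Between the arrays outside both of those that stood apart, cKO set 2 and WT set 1, the differences were 2.12, 2.34, 1.58, 1.45, 1.03 and 1.62 in the same order. That pair mixes genotype with set. WT values below the dim limit entered both series as read for Cck, Angptl7 and Gdf10, and the first series for Ltbp2. With WT at the limit, cKO set 2 was higher by at least 1.78 for Cck, 1.52 for Angptl7 and 0.83 for Gdf10. These comparisons reuse the values by which the genes were chosen, so their direction was largely fixed by that choice. Beyond this, the part of the control signal and of Malat1 in the results was not tested.

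The difference between the sets was not used to choose the genes, and it was tested with limma, with genotype as a term. The test asked whether the 6 genes differed between set 2 and set 1. Genes chosen for a genotype difference within both sets can have less spread in this fit by that choice. Its SEs and p-values are thus not independent of the choice. The WT means of Cck, Angptl7, Ltbp2 and Gdf10 lay below the dim limit, so these genes entered the test only through their cKO arrays. None of the 6 passed over all genes, where 1 of 8031 genes, or 0.0125%, did. Ltbp2 had the largest difference as read, at -1.01 (SE 0.24, limma adjusted p = 0.391), with -1.43 within cKO and -0.58 within WT. Its WT set 2 value of 5.09 lay below the dim limit, so the sizes of its WT difference and of the mean cannot be read. Thbs2 followed at -0.59 (SE 0.18, adjusted p = 0.453), with -0.44 within cKO and -0.74 within WT. These 2 genes had an unadjusted p under 0.05 in limma, as did 8.59% of all genes, 5.01% with lower values in set 2.

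Gdf10 differed between the sets by -0.54 (SE 0.24, limma adjusted p = 0.604), with -0.98 within cKO and -0.11 within WT. The WT values of Gdf10, Angptl7 and Cck lie below the dim limit in both sets, so no set difference can be read from them. Angptl7 differed by -1.18 within cKO and by 0.30 within WT (limma adjusted p = 0.738 for the mean of -0.44). Cck differed least within cKO, by -0.07, with -0.28 within WT (limma adjusted p = 0.810), and Kcnk2 by -0.38 within cKO and 0.11 within WT (0.883). All 6 means lay below 0, as did 4802 of the 8031 genes. Without the genotype term, limma's adjusted p was 0.999 for each and 2.86% of all genes had an unadjusted p under 0.05, since the genotype difference then counts as spread. The within-cKO values also rest on the array with the wide gap between the Dap probe sets, and the within-WT values on the array with high Malat1. Sums of marker lists differed between the arrays too. The summed intensity of 8 smooth muscle and pericyte markers, 4 of them below the limit on all arrays, was 371 in set 2 and 746 in set 1 of cKO, and 379 in set 2 and 651 in set 1 of WT. That of 6 suprabasal epidermal markers, 1 of them below it, was 24946 in set 2 and 22227 in set 1 of cKO, and 6931 in set 2 and 20311 in set 1 of WT. The suprabasal sum thus rose from set 1 to set 2 in cKO and fell in WT. The median difference cKO minus WT of its 4 tested markers was 0.21 within set 1 and 1.74 within set 2. The part of these markers in the set and genotype differences of the 6 genes was not tested.

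**Figure D3:**
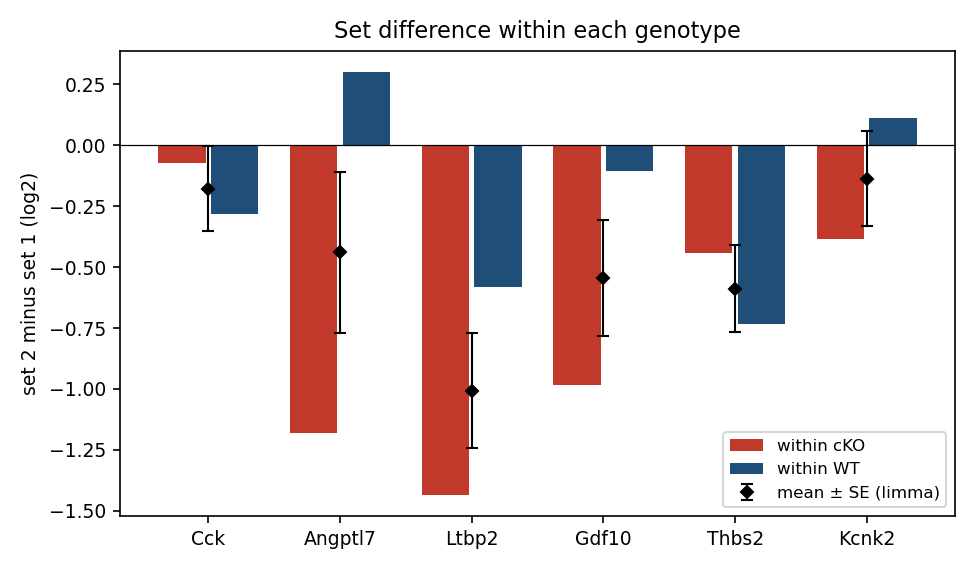
Set 2 minus set 1 (log2, vertical axis) for the 6 genes within cKO (red bars, 1 array per set) and within WT (blue bars, 1 array per set), with the mean over both genotypes and its standard error from limma as diamonds. All 6 cKO bars lie below 0, and the WT bars of Angptl7, Cck and Gdf10 are differences between values below the dim limit. The WT bar of Ltbp2 has its set 2 value below that limit.

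Genes that act with the 6 genes or belong to their families showed no call between genotypes in the main fit, which has no term for the set. Of 104 such genes in 6 lists, 81 had a probe set with a single symbol and 38 lay above the dim limit. None of the 38 passed limma at an adjusted p under 0.05, where 7 of 8031 genes, or 0.0872%, did, 0.0249% with higher values in cKO. At an unadjusted p under 0.05 limma gave 10 with higher and 2 with lower values in cKO, 31.6% of the 38 against 14.2% of all genes, of which 8.37% had higher values in cKO. The median difference was 0.26, against 0.03 over all tested genes. With the set as a replicate block in the model, 83 genes or 1.03% passed (0.66% higher and 0.374% lower in cKO), and 2 of the 38 did, Ccn2 with a higher and Cd36 with a lower value in cKO.

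The list of thrombospondins, related matricellular proteins and receptors held 6 of the 10 higher and 1 of the 2 lower genes at an unadjusted p under 0.05 in limma, among its 10 tested genes. Thbs1, thrombospondin 1, read 11.59 and 11.79 in cKO against 10.80 and 10.65 in WT, a difference of 0.97 (SE 0.17, limma adjusted p = 0.154). Its second probe set differed by 0.81. Thbs3 and Thbs4 lay below the dim limit on all arrays, with differences of -0.19 and 0.08. Ccn2, connective tissue growth factor, differed by 1.58 (SE 0.31, limma adjusted p = 0.172, and 0.0298 with the block), and Sparc, a collagen-binding matricellular protein, by 0.98 (0.148, and 0.0694 with the block).

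The thrombospondin receptor genes ran in opposite directions. Cd47, the integrin-associated receptor, read 10.63 and 10.75 in cKO against 10.15 and 10.10 in WT, a difference of 0.57 (SE 0.16, limma adjusted p = 0.252). Cd36, a scavenger receptor that also takes up fatty acids, read 4.41 and 4.34 in cKO against 6.22 and 6.90 in WT, a difference of -2.19 (SE 0.25, limma adjusted p = 0.079, and 0.0144 with the block). Both cKO values of Cd36 lay below the dim limit, and with cKO at the limit WT was at least 2.24-fold higher. The further probe sets of Cd36 differed by -2.24 and -0.20. Cd36 is also expressed by capillary endothelium and fat cells, and the summed intensity of the 13 endothelial markers was 405 and 384 in cKO against 1186 and 931 in WT, with 5 of them below the limit on all arrays. The endothelial gene Plvap passed limma between genotypes, at 4.29 and 4.19 in cKO against 8.29 and 7.78 in WT. The sum over 5 fat cell markers, 4 of them below the limit throughout and Fabp4 the fifth, was 72.6 and 75.5 in cKO against 1178 and 1431 in WT. Their part in the Cd36 value was not tested. Of the 10 tested genes of this list, 3 were at least 1.5-fold higher within both sets, as were 3.04% of all tested genes. Cd36 was lower by that much within both sets, as were 1.64% of all tested genes, with values as read. With cKO at the limit Cd36 still was.

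**Figure D4:**
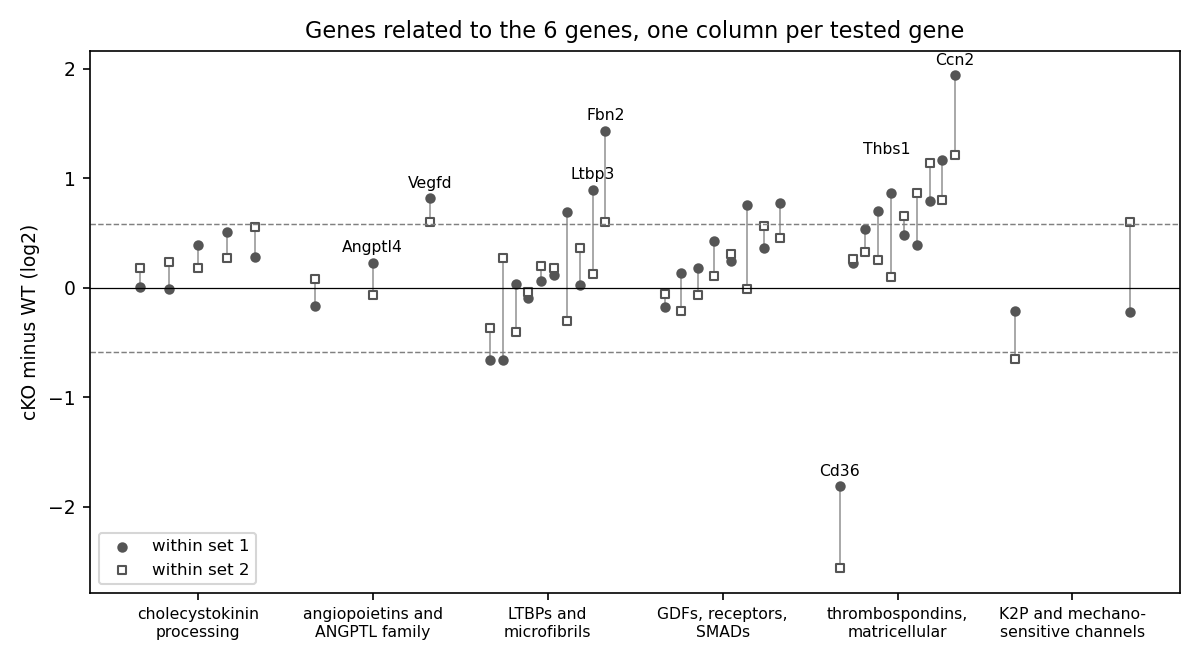
The difference cKO minus WT (log2, vertical axis) within set 1 (filled circles) and within set 2 (open squares) for the 38 tested genes of the 6 lists, 1 column per gene, ordered by mean within each list; dashed lines mark 1.5-fold. Ccn2 (1.94 and 1.21) and Cd36 (-1.81 and -2.56) lie farthest from 0 on either side as read, the cKO values of Cd36 being below the dim limit.

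The microfibril list surrounds Ltbp2. Of its 10 tested genes, Fbn2, which encodes the microfibril protein fibrillin 2, differed by 1.02, with 1.44 within set 1 and 0.60 within set 2 (SE 0.33, limma adjusted p = 0.291). Both WT values of Fbn2 lay below the dim limit, and with WT at the limit the differences were at least 1.26 and 0.27. Eln, the elastin gene, differed by -0.51 (adjusted p = 0.306), and by 0.08 on its second probe set. The other genes of latent TGF-β binding proteins differed less than Ltbp2: Ltbp3 by 0.51 (adjusted p = 0.449), Ltbp4 by 0.20 (0.639) and Ltbp1 by -0.19 (0.672). Ltbp2 was chosen for its difference in this contrast, so that its relatives differed less was largely fixed by that choice. Whether these differences are smaller than that of Ltbp2 was not tested.

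Among genes of GDF and activin signalling, 8 of 18 measured lay above the limit. Inhbb, which encodes an activin subunit, differed by 0.62 (SE 0.23, limma adjusted p = 0.325), the TGF-β receptor gene Tgfbr2 by 0.46 (0.421) and the activin receptor gene Acvr2a by 0.37 (0.610). The median of the list was 0.27.

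Of the angiopoietin list, 10 of 13 measured genes lay below the limit on all arrays. Vegfd, which encodes a lymphatic growth factor, read 6.57 and 6.23 in cKO against 5.75 and 5.64 in WT, a difference of 0.71 (SE 0.18, limma adjusted p = 0.236). Its 2 further probe sets differed by 0.99 and 0.90. Angptl4, the relative of Angptl7 linked to stem cell activation, read 10.08 and 10.96 in cKO against 9.86 and 11.03 in WT, a genotype difference of 0.08 (SE 0.45, adjusted p = 0.959). Its set difference was 0.88 within cKO and 1.17 within WT, and the mean of 1.02 (SE 0.18) did not pass limma over all genes (adjusted p = 0.196). For Angptl7 that difference was -1.18 within cKO, which includes the cKO set 1 array that stood apart. Within WT it was 0.30, between values below the limit. The mean of -0.44 did not pass either (limma adjusted p = 0.738). Angptl6 differed between genotypes by -0.04 (limma adjusted p = 0.938). A second, dimmer Angptl4 probe set read 5.74 and 6.72 in cKO against 4.51 and 6.25 in WT.

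The receptors of cholecystokinin were not among the detectable genes of the sorted cells. Cckar and Cckbr lay below the limit on all arrays, at 3.03 to 3.16 and 4.52 to 4.61, as did Gast, the gene of the related hormone gastrin, and the prohormone convertase gene Pcsk1. Genes of peptide processing were present: Cpe, a carboxypeptidase of prohormones, differed by 0.39 (SE 0.16, limma adjusted p = 0.357), Ctsl, a protease, by 0.42 (0.341), and Tpst1, a tyrosine sulfotransferase, by 0.29 (0.482). Among potassium channels of the Kcnk2 family, only Kcnk7 lay above the limit, with a difference of 0.19 (limma adjusted p = 0.748), and the stretch-sensitive cation channel gene Trpv4 differed by -0.43 (0.592). Kcnk4 and Kcnk10, the closest relatives of Kcnk2, read 4.19 to 4.54 and 3.32 to 3.55 over the 4 arrays, and Kcnk1 read 4.56 to 5.04.

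Several of the 6 genes are also known from mesenchyme, nerve or neuroendocrine cells, so markers of such cells are set beside them. Of 14 fibroblast markers, 9 lay below the dim limit on all arrays, including Col1a1, Col3a1, Pdgfra and Lum, and the summed intensity of the list was 2528 and 1994 in cKO against 1859.8 and 1974 in WT. Col6a1 was the only tested fibroblast marker at least 1.5-fold higher within both sets, with a difference of 1.11 (SE 0.18, limma adjusted p = 0.126). Of the other tested markers, Col5a2 differed by 0.18, Col1a2 by -0.14, Dcn by -0.42 and Col5a1 by -0.53, and the median over the tested fibroblast markers was -0.14. Of 8 Merkel cell markers, 7 were below the limit throughout, Krt20 and Atoh1 among them, with summed intensities of 158 and 155 in cKO against 165 and 154 in WT. Of 6 dermal papilla markers, 5 were below it on all arrays. Of 5 Schwann cell and nerve markers, 3 were below it, and the sums were 174 and 153 in cKO against 129.8 and 108 in WT. The summed bulge markers were 81525 and 81052 in cKO against 66050.4 and 68395 in WT.

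The genes most like each of the 6 were found by the root mean square distance between gene-centred log2 values over the 4 arrays, among 8030 other tested genes. Thbs2 had the nearest match, Htra1, which encodes a secreted serine protease (distance 0.06), followed by the BMP ligand gene Bmp2 (0.07) and the antimicrobial peptide gene Defb1 (0.11). Htra1 read 11.73 and 11.32 in cKO against 10.31 and 9.43 in WT. Kcnk2 was nearest to the glucocorticoid-induced gene Tsc22d3 (0.07), Tekt2 (0.08) and Adh7 (0.20). Gdf10 was nearest to Fmod, the gene of the collagen-binding proteoglycan fibromodulin (0.16), Serpinb11 (0.17) and Vsir (0.18). Fmod read 7.85 and 6.68 in cKO against 5.12 and 5.42 in WT.

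Cck, Angptl7 and Ltbp2 had no match as near. Cck was nearest to Tsc22d3 (0.27), Kcnk2 (0.32) and Tekt2 (0.35). Angptl7 was nearest to Ltbp2 (0.34), Fmod (0.39) and Gdf10 (0.42), and Ltbp2 to Sprr2d (0.33), Oas1a (0.33) and Angptl7 (0.34). Among the 6 genes themselves, Gdf10 and Kcnk2 were the closest pair (0.25), and Angptl7 and Thbs2 the farthest apart (0.73). With 4 arrays these distances describe the arrays and carry no test. They include the genotype difference by which the 6 genes were chosen, so near matches are largely genes with a similar difference. The values were not scaled, and Cck, Angptl7 and Ltbp2 had the largest differences as read among the 6 genes. Their lack of a near match thus cannot be told apart from the size of their differences. WT values below the dim limit entered as read for Cck, Angptl7 and Gdf10, and in part for Ltbp2.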

How the data were processed

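RNA of sorted cells was labelled as biotinylated cRNA from 2 µg and hybridised, per the labels' protocols. The table the authors deposited has 1 intensity per probe set and array on a linear scale, for 22690 probe sets. The submitters' processing notes name RMA. No version or settings of it appear in the sources used here. The linear scale was read from the values (5.29 to 25561), and log2 of the deposited intensity was computed here, with medians of 6.36 to 6.38. RMA gives no detection call, and the number of arrays limits precision. The members and lists were chosen with earlier results of these data known.

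Gene symbols came from GEO's platform annotation (691 had several symbols, 1555 none, 64 were controls). Each gene took its probe set of highest mean. Genes below the 40th percentile, Xist and Y-linked genes were left out, leaving 8031. limma 3.58.1 in R 4.3.3 was fitted to all 4 arrays, for cKO against WT with no covariate (2 residual degrees of freedom) and for set 2 against set 1 with genotype as a term (1 residual degree of freedom), each with adjustment by Benjamini-Hochberg at 0.05. A plain permutation test of 2 against 2 arrays cannot give a p below 0.333. Both arrays of a set share a labelled state, so the set was read as pairing the arrays, and same-set deviations from group means correlated across genes with r = 0.192. The main genotype fit leaves this pairing out. Only the alternative with the set as a replicate block takes it in. Both fits were tested on simulated data, with 200 of 8031 genes changed in each of 20 draws. The genotype fit recovered 33.1% of log2 changes of 1 and 94.6% of changes of 2, and 5.10% of its calls were false. The set fit recovered 67.3% and 99.6%, and 9.76% of its calls were false, above the threshold of 0.05. The simulated noise was normal and independent between arrays, with no set effect in the genotype case and no array standing apart. These rates may therefore differ from those in the arrays themselves.

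Named were the 6 genes, Tbx1, the sort markers, per list the genes called, those of the 3 largest differences and the closest relatives, the 3 most alike genes per member and the genes beside rank 12. Per marker list up to 3 genes of highest mean were in the rule. Cd47, Pcsk1, Malat1 and markers below the limit were named outside it, after their values were seen. Promoters and names came from RefSeq tables of GRCm38.p6, and the sources used here give no build for the array annotation. Proteins were not analysed here. Alternatives were other filters, probe set rules and scalings, an offset of 16 before log2, a variance trend with robust fitting, the block, no genotype term and each array left out.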

Additional observations from a re-analysis of the deposited data

How the results depend on the processing

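limma's count of genes called between genotypes was 7 and became 0 at a 60th percentile filter (816 at an unadjusted p under 0.05), 28 with a variance trend and robust fitting and 83 with the set as a replicate block. With single arrays left out it ran from 2 without the WT set 2 array to 16 without the cKO set 2 array. The count between sets was 1 and became 17 at the 60th percentile filter, 23 with median centring, 9 after a second quantile normalisation and 7 with the offset of 16. It was 0 with no filter (846 at an unadjusted p under 0.05) and 0 without the genotype term (230), also with each array left out (107 to 842). With the genotype term, 3 arrays leave no residual degrees of freedom, so no count exists. The related genes called were 0 in 7 alternatives and 2 with the block, which changed no call of the other 36 tested.

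The median set difference of the 6 genes, -0.49, was -0.71 to -0.20 with single arrays left out. The median genotype difference of the 6 genes, 2.15, was 1.68 with the offset, 1.60 between cKO set 2 and WT set 1 alone and 1.72 to 2.41 with single arrays left out. Single members ran from 1.03 to 3.37 under the alternatives, which reuse the arrays that chose them. WT values below the dim limit were not set at the limit in any of them. No member was called between sets in the 5 alternatives that gave members a p (limma adjusted p from 0.164 to 0.999), which do not include the 60th percentile filter. Without either cKO array the set difference was 0.30 for Angptl7 and 0.11 for Kcnk2, opposite in sign to the mean, where the Angptl7 value is read between WT values below the dim limit. Without either WT array it was -1.18 and -0.38 for the same genes. The causes were not tested.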

Other observations

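The genes next to the 6 genes on the chromosomes were looked at after the members' values were seen. Of 9 neighbours with a probe set, 7 were above the dim limit, and 0 passed limma's genotype test over all genes, with 1, Cenpf, at an unadjusted p under 0.05. Over all tested genes 0.0872% passed limma and 14.2% had an unadjusted p under 0.05. None was at least 1.5-fold apart in the same direction within both sets, where 3.04% of all tested genes were higher and 1.64% lower in cKO. With 7 genes, nothing is read from these counts. Mtor, the kinase gene that overlaps Angptl7, differed by 0.08 within set 1 and -0.03 within set 2 (limma adjusted p = 0.963). Angptl7, which was chosen for its difference, had 3.52 and 2.04 as read. Trak1, next to Cck, differed by 0.22, Smoc2, a matricellular gene next to Thbs2, by 0.18, and Gdf2, a BMP family gene next to Gdf10, by 0.07. The largest value was that of Cenpf, a kinetochore gene next to Kcnk2, at -0.92, with -0.58 within set 1 and -1.26 within set 2 (limma adjusted p = 0.312), opposite in sign to Kcnk2.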
